A study of Sus scrofa with 4 samples.

Results

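Interleukin-1 signalling was followed through 8 genes, namely the ligands IL1A, IL1B and IL18, the receptors IL1R1 and IL1R2, the accessory protein IL1RAP, the antagonist IL1RN and the receptor-associated kinase IRAK1. The family was picked with earlier results of these arrays known, so counts of its members set against all genes are descriptions. Probes were assigned by name: a probe belonged to a gene when the gene name printed beside it on the porcine array was the gene's symbol. This rule found 8 probes for 6 of the 8 genes, out of 43603 probes that carry 34853 gene names. No probe was named IL1R2 or IL1RAP. A probe whose description spells out the interleukin-1 receptor accessory protein, and 3 probes named IL-1beta, lie outside the rule and are given beside the members under those names.

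The cells were PIP, a line of preadipocytes from the longissimus thoracis muscle of a female Duroc pig, and porcine mature adipocytes (pMA) obtained from them by 4 days in medium with insulin, dexamethasone, octanoate and oleate. PIP and pMA without an added stimulus, pMA with 100 μM serotonin for 12 h (written with an additional per ml in the sample labels) and pMA with 2.5 µg/mL TNF-α for 12 h gave 1 array each. All groups come from 1 cell line, and the arrays shared 1 slide. The methods mention pooling of each group's RNA only where they name a mouse array, so pooling before labelling is uncertain here. No condition was replicated, so no value below carries a test or an error between cultures.

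Interleukin-1α and interleukin-1β are made by separate genes and bind the same receptor, IL1R1, which recruits IL1RAP. The assembled receptor brings in the adaptor MYD88 and the IRAK kinases, which lead to TRAF6, NF-κB and the MAP kinases. IL1RN occupies IL1R1 without signalling and IL1R2 is a decoy, whereas IL18 uses a receptor of its own and shares the adaptor and kinases. In fat, interleukin-1 is known as an inhibitor of adipocyte differentiation and insulin response, and it induces chemokines, prostaglandin synthesis and acute-phase proteins in many cell types.

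The probes are 60 bases long, and the sequences that matter for reading the signals are printed 5′ to 3′ as the scanner files give them. IL1A had a pair of probes, A_72_P444799 and A_72_P165276, which were designed on separate transcript records and cover almost the same stretch. Over 57 shared bases they matched at 54 (94.7%). The stretches of 30 bases that hold the differences are shown here, with the differing bases in capitals.

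IL1A A_72_P444799: gaaggtctgtatTCtagtaActgggagccc
IL1A A_72_P165276: gaaggtctgtatGGtagtaGctgggagccc

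The signals of these probes are therefore not separate measurements of the transcript. The pair for IL18 is different: the probes start at bases 426 and 293 of the same transcript record and share no base.

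IL18 A_72_P232887: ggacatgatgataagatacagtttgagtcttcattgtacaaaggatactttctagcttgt
IL18 A_72_P652365: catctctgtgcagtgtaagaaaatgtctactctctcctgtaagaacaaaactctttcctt

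IL1R1 and the accessory protein had 1 probe each, shown because the signal of IL1R1 rose most with serotonin and that of the accessory protein with differentiation.

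IL1R1 A_72_P263212: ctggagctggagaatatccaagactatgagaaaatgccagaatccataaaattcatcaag
IL1RAP A_72_P104151: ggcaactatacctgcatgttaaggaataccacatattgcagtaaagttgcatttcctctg

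Interleukin-1β needs most care. The pig has 2 genes for it, IL1B and IL1B2, and the probe named IL1B differs in sequence from the 3 probes named IL-1beta. Of the latter, A_72_P463511 is assigned to transcript records of both genes, and A_72_P611199 and A_72_P440598 to IL1B2. For the probe named IL1B only its initial 30 bases are shown.

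IL1B A_72_P441479: gagtgtgccaccattataatctctcaccaa
IL-1beta A_72_P463511: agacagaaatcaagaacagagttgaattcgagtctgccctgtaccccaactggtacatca
IL-1beta A_72_P611199: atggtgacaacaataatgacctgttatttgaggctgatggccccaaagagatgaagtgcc
IL-1beta A_72_P440598: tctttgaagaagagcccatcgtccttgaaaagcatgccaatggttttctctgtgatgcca

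Each signal is the scanner's background-subtracted brightness of a spot. The scanner also marks whether a spot is well above background, and on these arrays the faintest probe with that mark had a signal between 14.7 and 19.2. Ratios between arrays were taken on the log2 scale after each array was set relative to its own 75th percentile of signal (516 in PIP, 481 in pMA, 569 after serotonin and 561 after TNF-α). A log2 ratio of 1 is a 2-fold difference, which is the fold cutoff of the study's methods. As a measure of technical error, spots of the same probe on 1 array give a log2 ratio a standard deviation of 0.17 to 0.20, and of 0.23 to 0.27 for signals under 200. The scanner's own standard error is printed after a ratio as ±SE. Neither covers the spread between cultures. Signals of different genes are not compared, because probes differ in how brightly they bind.

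The state of the cells was read from marker genes. In pMA, CD36 (signal 32.4 in PIP and 1084 in pMA), PLIN2 (630 and 5138) and FABP4 (19.1, not well above background, and 150) were brighter than in PIP. PLIN1, which coats lipid droplets, was not well above background on any array, and the adipokine ADIPOQ was so in PIP (22.3) but not in pMA (16.8), after serotonin (9.52) or after TNF-α (11.3). The lipases LPL (796 in PIP and 958 in pMA) and LIPE (1672 and 1689) were at similar signals in PIP and unstimulated pMA. After serotonin and TNF-α LPL had 6026 and 2715, and LIPE had 2990 and 2103. Over all probes, 56.5% to 66.0% were well above background on an array. Of 6 skeletal muscle markers with a probe 4 were so on each array, of 5 endothelial markers 2 or 3, and of 6 fibroblast and preadipocyte markers 6. Of 8 macrophage and monocyte markers with a probe, 6 or 7 were well above background on each array, although CD163 was on none. Their summed signal relative to the 75th percentile was 57.3 in PIP, 78.6 in pMA, 39.3 after serotonin and 71.7 after TNF-α, of which the probe of CD86 alone made up 93.6% to 96.9%. Without CD86, left out after its level was seen, the other 7 summed to 1.80, 2.49, 2.51 and 3.78, with CD14 the largest part on each array.

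IL1A, the gene of interleukin-1α, varied most among the members. Probe A_72_P444799 had a signal of 520 in PIP, 277 in pMA, 4528 after serotonin and 1575 after TNF-α. Probe A_72_P165276 had signals of 278, 149, 2340 and 837 in the same order. Both probes placed the arrays in the same sequence, with serotonin highest, then TNF-α, then PIP, and unstimulated pMA lowest, and each step in this sequence was larger than 2 scanner standard errors.

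After serotonin, IL1A was 13.8-fold higher than in unstimulated pMA by A_72_P444799 (log2 ratio 3.79 ± 0.21 SE) and 13.3-fold higher by A_72_P165276 (3.73 ± 0.21 SE). With the brighter probe it held rank 6 from the top among 19084 gene names with a ratio, of which 6.85% differed at least 2-fold in either direction and 2.06% were that much higher. After TNF-α, IL1A was 4.87-fold higher (2.28 ± 0.21 SE) by the brighter probe and 4.81-fold higher by the other. This was rank 64 of 19783 gene names, of which 3.56% differed at least 2-fold and 2.21% were higher by that much. These ratios share the array of unstimulated pMA, on which IL1A was at its lowest. In a population of cells, more cells that express a gene and more RNA per cell cannot be told apart.

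Set directly against each other, the stimulated arrays differed 2.84-fold in IL1A, higher with serotonin (1.50 ± 0.20 SE; 1.46 by the other probe). Among 21868 gene names, 6.91% differed at least 2-fold between these arrays and 1.81% were higher by that much with serotonin, and IL1A stood at rank 114. Macrophage markers did not follow IL1A in a single way across these arrays. CD14 had signals of 697, 891, 1039 and 1645 and TYROBP of 40.8, 84.8, 202 and 294 in PIP, pMA, pMA with serotonin and pMA with TNF-α, highest with TNF-α in both cases. In the same order FCER1G had 33.9, 36.5, 51.8 and 45.8, highest with serotonin as IL1A was. LYZ was well above background only with serotonin (24.4). AIF1 had 125, 122, 74.1 and 75.5, lower with both stimuli. MRC1 had 22.8, 36.5, 24.5 and 40.4, and CD86 was lowest with serotonin (20944.5). Without CD86, the summed signal of the markers was 2.49 in unstimulated pMA and 2.51 with serotonin, where IL1A was highest, and 3.78 with TNF-α. CD14 was the largest part of this sum on each array, so the sum is not a reading separate from CD14. The part of such cells in the IL1A signal was not tested.

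During differentiation IL1A went the other way. It was 1.75-fold lower in pMA than in PIP (-0.81 ± 0.21 SE; -0.80 by the other probe), short of the 2-fold cutoff. Of 18635 gene names with a ratio, 13.4% differed at least 2-fold and 3.58% were lower by that much. Scaling to the median of each array in place of the 75th percentile moved the median log2 ratio of all gene names from 0.12 to -0.22 and IL1A to -1.15, past the cutoff. IL1A lay at -0.93 from that median in both scalings, which follows from the scaling, since it shifts the measured ratios alike. The distance was -0.85 after quantile normalization and -0.77 under normexp, a background correction explained below. It was -1.22 without a filter on dim probes.

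**Figure D1:**
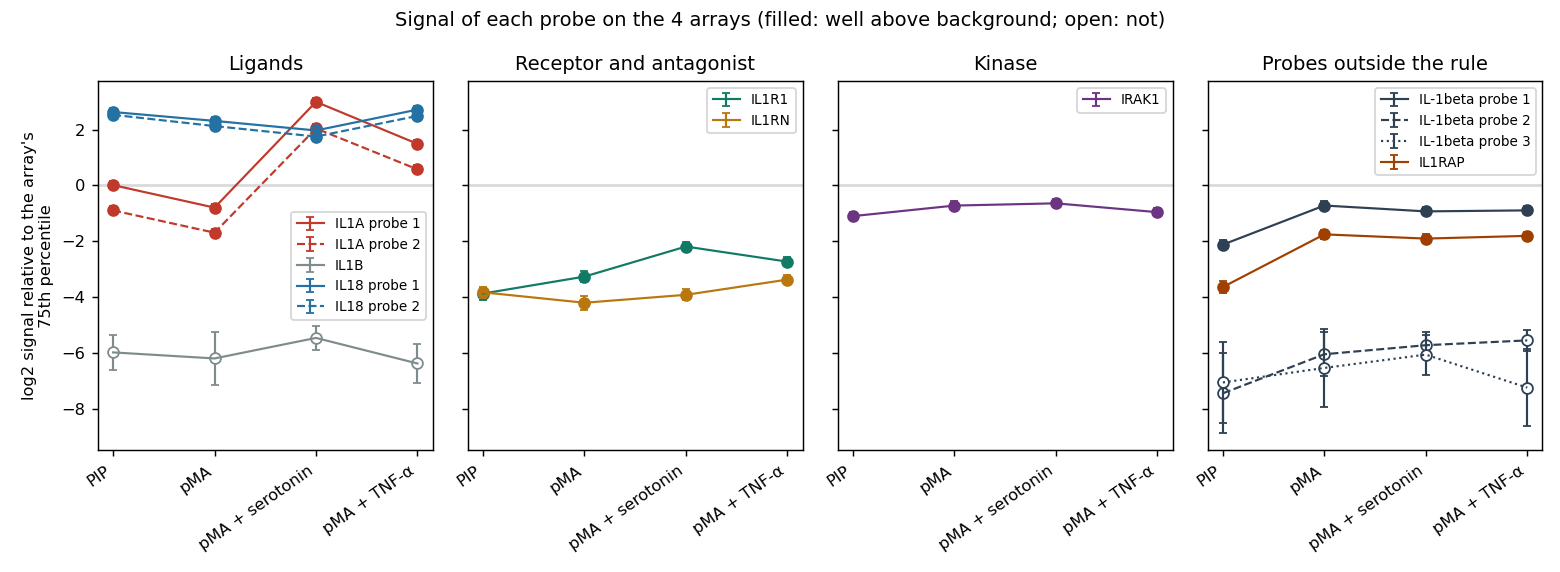
Signal of every probe on the 4 arrays, as log2 relative to the array's 75th percentile; bars are scanner standard errors, filled points are well above background and open points are not, and probe 1 of a gene is its brighter one in pMA. Both IL1A probes rise from pMA to serotonin and TNF-α, IL18 and IRAK1 stay within 0.78 and 0.46 of their lowest log2 value, and IL1B is open on all 4 arrays.

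Interleukin-1β was not detected by the probe that carries its symbol. The IL1B probe had signals of 8.20 in PIP, 6.57 in pMA, 12.9 after serotonin and 6.77 after TNF-α, none of them well above background, and no ratio was taken. Likewise, the IL-1beta probes assigned to IL1B2 stayed between 2.97 and 12.0 on all arrays without reaching that mark. These signals lie below the lowest level that the arrays mark as detected, which does not show that the transcripts were absent.

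The IL-1beta probe assigned to both genes behaved differently. A_72_P463511 had a signal of 119 in PIP, 292 in pMA, 299 after serotonin and 302 after TNF-α, and was well above background throughout. It was 2.64-fold higher in pMA than in PIP (1.40 ± 0.21 SE) and, against pMA, lay at -0.21 ± 0.21 SE with serotonin and at -0.17 ± 0.21 SE with TNF-α. The 4 probes for interleukin-1β thus do not give 1 account of the transcript, and which of them reads it was not tested.

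IL18, a ligand that inflammasome caspases cleave to its active form, was well above background on every array with both probes. A_72_P232887 had a signal of 3191 in PIP, 2383 in pMA, 2226 after serotonin and 3684 after TNF-α. A_72_P652365 had signals of 2976, 2096, 1913 and 3150. Although these probes share no base, their log2 ratios differed by at most 0.08 in any comparison.

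No IL18 ratio reached 2-fold. In pMA it was -0.32 against PIP, after serotonin -0.34 and after TNF-α 0.40 against unstimulated pMA, each ± 0.20 SE for A_72_P232887. Between the stimuli IL18 was 1.68-fold lower with serotonin than with TNF-α (-0.75 ± 0.20 SE; -0.74 by the other probe). The levels after TNF-α and in PIP differed by 0.09 and 0.04 with the respective probes, in opposite directions, and no neighbouring levels were more than 2 scanner standard errors apart.

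IL1R1, the signalling receptor, gave a faint signal that was brightest with serotonin. It was 35.3 in PIP, 50.0 in pMA, 125 after serotonin and 84.7 after TNF-α, well above background on each array. The log2 ratio was 0.61 ± 0.30 SE for pMA against PIP, 1.08 ± 0.26 SE for serotonin against pMA and 0.54 ± 0.26 SE for TNF-α against pMA. Serotonin exceeded TNF-α by 0.54 ± 0.22 SE.

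Only the serotonin ratio, 2.11-fold, passed the cutoff, and the margin was smaller than its error. It was 0.42 when the background was modelled with normexp (an alternative correction that holds faint signals away from 0), where the TNF-α ratio was 0.11. The order of the levels, with serotonin highest and PIP lowest, kept its direction in every setting tried, since none of the IL1R1 ratios changed sign.

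IL1RN, the receptor antagonist, was also faint, at 36.4 in PIP, 26.2 in pMA, 37.7 after serotonin and 54.3 after TNF-α. Its highest level was with TNF-α, 1.78-fold above unstimulated pMA (0.83 ± 0.31 SE), and after serotonin it was 0.28 ± 0.32 SE, within the error. It was lower with serotonin than with TNF-α (-0.54 ± 0.25 SE). Under normexp the TNF-α ratio was 0.25. No neighbouring levels of IL1RN were more than 2 scanner standard errors apart.

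IRAK1, the kinase recruited to the activated receptor, varied least. Its signals of 241, 291, 365 and 289 in PIP, pMA, pMA with serotonin and pMA with TNF-α spanned 0.46 on the log2 scale. Its largest ratio was 0.38 ± 0.21 SE, for pMA against PIP, and it was 0.081 after serotonin and -0.24 after TNF-α.

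The accessory protein IL1RAP, read by the probe found through its description, moved with differentiation. Its signal was 41.5 in PIP, 143 in pMA, 152 after serotonin and 161 after TNF-α, so that PIP stood apart from the 3 pMA arrays. It was 3.70-fold higher in pMA than in PIP (1.89 ± 0.25 SE), and the stimuli left it at -0.15 ± 0.21 SE and -0.05 ± 0.21 SE against pMA. The rise was 1.62 after quantile normalization, 1.54 with scaling to the median and 1.02 under normexp. The IL-1beta probe, which rose on the same pair of arrays, kept 1.27, 1.05 and 1.01 under these settings.

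**Figure D2:**
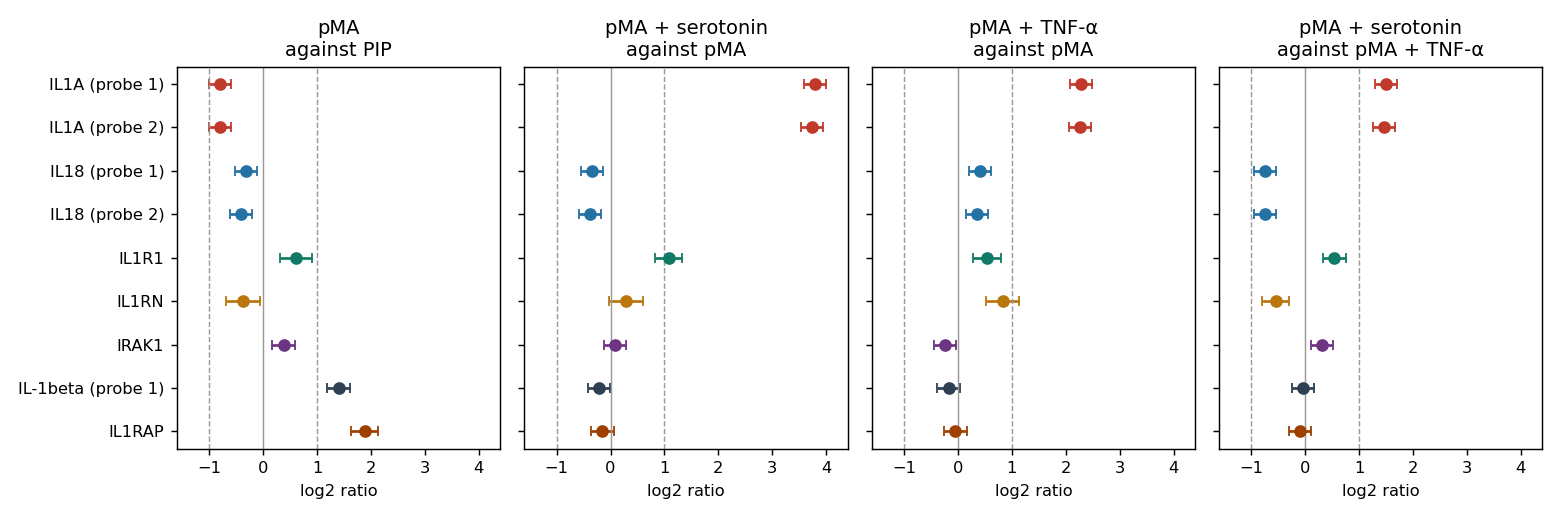
Log2 ratio of every probe that had one, for the 4 comparisons; bars are scanner standard errors, solid lines mark no difference and dashed lines 2-fold. IL1A lies beyond 2-fold with either stimulus and between them, IL1R1 reaches 1.08 with serotonin, and the IL-1beta and IL1RAP probes lie beyond 2-fold only in pMA against PIP.

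With scaling to the 75th percentile, faint gene names were on balance brighter in pMA, and the faint members lie in that range. Among gene names whose mean log2 level on the PIP and pMA arrays lay between -4 and -3 relative to the 75th percentile, the median log2 ratio was 0.32 and 13.8% were at least 2-fold higher in pMA. IL1R1 falls in this range. Between -3 and -2, where IL1RAP falls, the median was 0.15 and 9.76% were higher by that much. Between -2 and -1, where the IL-1beta probe falls, these values were 0.09 and 8.35%. The IL-1beta and IL1RAP ratios exceeded the 95th percentile of gene names at their level (1.24 and 1.35), while IL1R1 at 0.61 lay within the corresponding range up to 1.43. With scaling to the median the medians of these 3 groups of gene names were -0.03, -0.19 and -0.26, so the sign of the shift depends on the scaling. The order of the groups could not change, because this scaling moves their ratios by the same amount. The part of the level-dependent shift in the faint members was not tested.

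**Figure D3:**
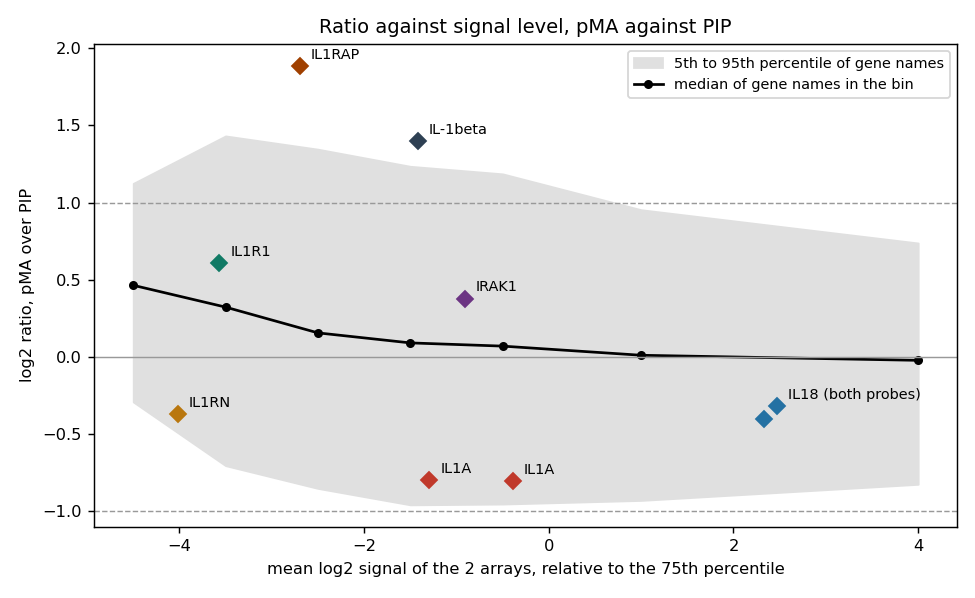
Log2 ratio of pMA over PIP against the mean log2 signal of both arrays; the line is the median and the grey band the 5th to 95th percentile of gene names in 7 level bins, and diamonds are the members, IL-1beta and IL1RAP. IL1RAP and IL-1beta lie above the band and the other probes within its outline, although IL1RN (-0.37) is below the 5th percentile of its own, lowest bin (-0.29).

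Over the family, 5 of the 8 genes had a ratio in each comparison. None reached 2-fold in pMA against PIP, where the background was 13.4% of gene names. After serotonin IL1A and IL1R1 were at least 2-fold higher, against 2.06% of gene names, and after TNF-α IL1A alone, against 2.21%. IL1A was also the only member 2-fold apart between the stimuli. Their median log2 ratio came to -0.32 for differentiation, 0.28 for serotonin and 0.54 for TNF-α, beside 0.12, 0.01 and 0.01 over all gene names. With so few genes these medians describe the members and nothing wider.

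A list of 78 further names covering the family's other ligands and receptors, proteins that process the ligands, signal carriers and genes known to be induced by interleukin-1 was read in the same way. Probes were found for 50 of them. TNF-α signals through NF-κB as well, so most of the induced genes respond to both cytokines and do not single out interleukin-1.

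Of the remaining ligands, only IL1B2 had a probe, described above. Among receptors, IL1RL1, the receptor of interleukin-33, was not well above background on any array. IL1RAPL1 was so only after TNF-α (21.1). IL18R1 had 2 probes, and the brighter was well above background only after serotonin (29.1) and TNF-α (21.1). Its other probe gave no ratio in any comparison. These signals were close to the limit of detection.

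In the differentiation comparison, 5 of 41 listed genes with a ratio were at least 2-fold higher and 5 lower in pMA, against 9.84% and 3.58% of gene names. With scaling to the median the split was 2 higher and 8 lower, as the median of all gene names moved down. The acute-phase gene SAA3 had signals of 556 in PIP and 7033 in pMA (3.76). The chemokine CCL2 went from 32900 to 70906 (1.21), CASP4, an inflammatory caspase, from 3623 to 7256 (1.10) and TAB3, a scaffold of the TAK1 kinase, from 26.5 to 50.9 (1.04). LCN2, which encodes a siderophore-binding protein of innate immunity, was well above background in pMA and not in PIP. Its ratio, a bound, was 4.36-fold by its brighter probe (log2 2.13, and 1.87 by the other). Under normexp it was 1.59-fold, so the larger value is not a firm minimum.

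The prostaglandin synthase PTGS2 showed the largest fall of the list in this comparison, from 2192 to 387 (-2.40). UBE2N, which builds the ubiquitin chains made by TRAF6, was at -1.17, the stress-response gene IER3 at -1.11, CHUK, a subunit of the IκB kinase, at -1.08 and PELI2, a ubiquitin ligase of the IRAK complex, at -1.08. All 10 kept their direction in every setting that gave a ratio, but only PTGS2, SAA3 and UBE2N stayed past 2-fold in each. TAB3 was below 2-fold in 3 of 8 settings, and CASP4, CCL2, CHUK, IER3, LCN2 and PELI2 in 1 each.

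With serotonin, 10 of 42 listed genes were at least 2-fold higher and 2 lower, against 2.06% and 4.79% of gene names. Among induced genes, the collagenase MMP1 had signals of 28.0 in pMA, near the limit of detection, and 668 after serotonin (4.33, and 2.53 under normexp). PTGS2 rose from 387 to 4484 (3.29), which is above its level in PIP, and the chemokine CXCL2 from 53.7 to 530 (3.06, and 1.85 under normexp). The NF-κB inhibitors TNFAIP3 (2.25, and 1.19 under normexp) and NFKBIA (1.97), the chemokine CCL20 (1.79), IER3 (1.77) and the mitochondrial superoxide dismutase SOD2 (1.53) followed.

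In the signalling group, IRAK2, a kinase of the receptor complex, was the only gene of 19 with a 2-fold difference, from 39.0 to 119 (1.37). CASP4 was lower with serotonin (-1.16). The adaptor MYD88 was at 0.00 and TRAF6 at 0.01. CCL20 and IRAK2 fell below 2-fold under normexp, at 0.93 and 0.64. So did LCN2, the other gene that was lower with serotonin, from -1.07 to -0.58. Of the 12 genes, 9 stayed past 2-fold in every setting that gave a ratio.

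With TNF-α, 15 of 43 listed genes were at least 2-fold higher and 1 lower, against 2.21% and 1.34% of gene names. SAA3 reached 423747 from 7033 (5.69, with its 5 probes between 5.69 and 7.57) and TNFAIP3 1679 from 36.6 (5.29). SOD2 (3.67), CCL20 (3.59), MMP1 (3.56), CXCL2 (3.27) and NFKBIA (3.04) followed. Under normexp, some genes faint in unstimulated pMA gave smaller ratios that stayed past 2-fold. These were 3.86 for TNFAIP3, 2.43 for CCL20, 1.87 for MMP1 and 2.07 for CXCL2. Other faint genes fell below 2-fold there. VCAM1 went from 1.75, a bound, to 0.96 and CASP1 from 1.54, also a bound, to 0.33. CSF3, the only listed gene at least 2-fold lower, went from -1.01 to -0.32. Of the 16 genes, 12 stayed past 2-fold in every setting that gave a ratio. PTGES, a prostaglandin E synthase, was at 1.90 and the adhesion molecule ICAM1 at 1.77.

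IRAK2 was again the only signalling gene past the cutoff, from 39.0 to 562 (3.63, and 2.42 under normexp), and MYD88 was at 0.65. The rises also included IL6 (1.63) and CCL2 (1.49). The inflammasome sensor NLRP3 was at 1.06, the smallest of the 15 rises, and 2 of 8 settings put it below 2-fold. It was named after its value was seen.

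**Figure D4:**
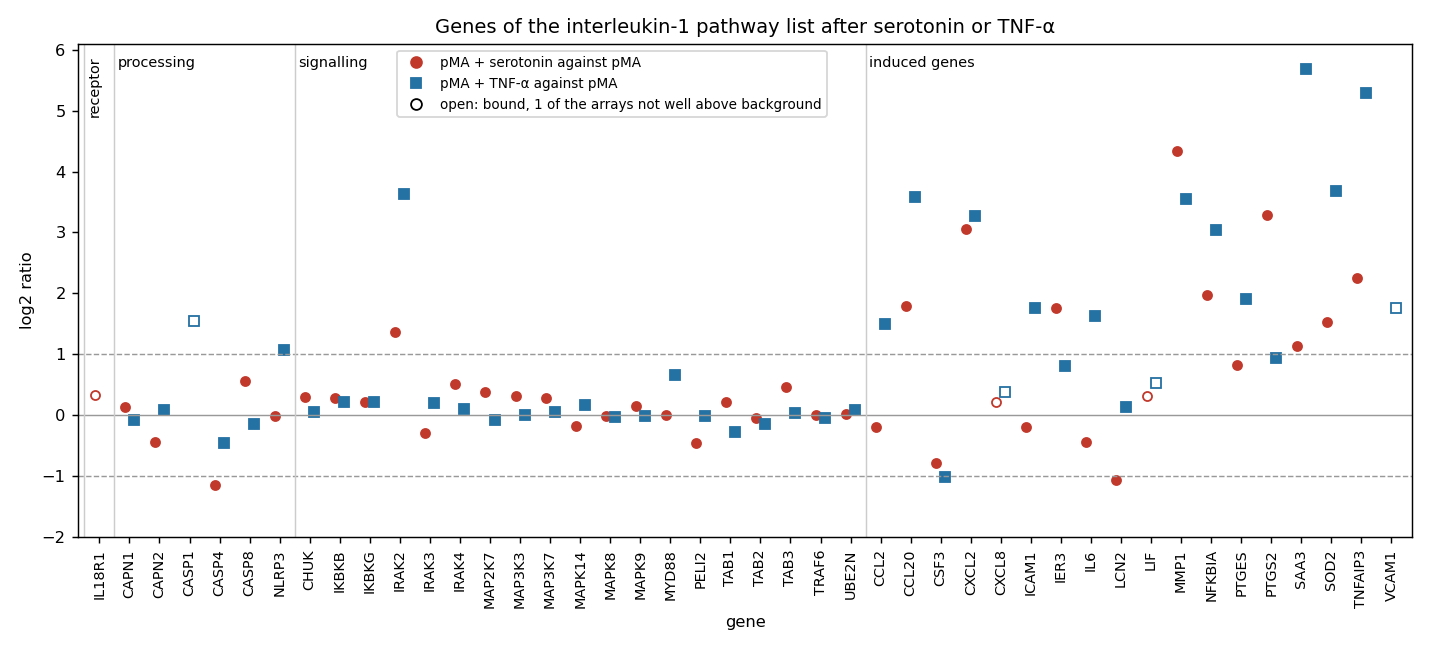
Log2 ratios of the listed genes that had one, after serotonin (circles) or TNF-α (squares), each against the same array of unstimulated pMA; open symbols are bounds, where only 1 of the arrays compared was well above background, and dashed lines mark 2-fold. Most signalling genes lie between the dashed lines with both stimuli, IRAK2 lies above them, and the induced genes are spread from -1.07 to 5.69.

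Compared directly, 1 listed gene was at least 2-fold higher with serotonin than with TNF-α and 14 were lower, of 45 with a ratio, against 1.81% and 5.1% of gene names. PTGS2 was the gene that was higher with serotonin (2.36), as IL1A was among the members. SAA3 (-4.56), TNFAIP3 (-3.04), IRAK2 (-2.26), SOD2 (-2.15), IL6 (-2.07), ICAM1 (-1.97) and CCL20 (-1.80) were lower. VCAM1, an adhesion molecule, and CASP1, the caspase that cleaves pro-interleukin-1β, were not well above background with serotonin. As bounds on the deposited signals they were 4.74-fold and 4.17-fold lower there. Under normexp these values were 2.28-fold and 1.74-fold, the latter short of the cutoff. The cytokine IL6 had signals of 1600 in PIP, 833 in pMA, 727 after serotonin and 3009 after TNF-α, so it was highest with TNF-α while IL1A was highest with serotonin.

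Across the 4 arrays, the profiles most like those of IL1A and IL1R1 were sought among 4661 gene symbols that were well above background throughout, by the root mean square difference of log2 levels after each gene was centred. For IL1A these were UGT1A6, a glucuronosyltransferase (0.32), the nuclear receptor NR4A2 (0.43) and the lipoprotein lipase LPL (0.53). UGT1A6 had log2 ratios of -1.31, 3.68 and 1.92 for differentiation, serotonin and TNF-α, and LPL had 0.37, 2.41 and 1.28. NR4A2 (-0.91) shared with IL1A and UGT1A6 the lower level in pMA than in PIP, and LPL did not. For IL1R1 the closest were TP53INP1 (0.07), STXBP2 (0.10) and PSMB11 (0.12), with serotonin ratios between 0.79 and 1.02. With 4 points per gene, such likeness is found easily and is given as a description.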

How the data were processed

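The scanner files hold background-subtracted intensity of each Cy3 spot (processed signal), which the authors made with Agilent Feature Extraction 10.7.3.1. The study's methods also name a mouse array with GenePix and a 2-color protocol, but the deposited files are of a porcine array in 1 color. The deposited value table holds a linear ratio, each array's intensity over a constant close to its 75th percentile, and served as an alternative. Its columns belong to these samples only (0 others).

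Control and outlier spots were left out (12, 1, 3 and 4 in PIP, pMA, serotonin and TNF-α), spots of a probe averaged, and the deposited intensities placed on the log2 scale minus the array's 75th percentile. Well above background were 56.5%, 56.6%, 61.0% and 66.0% of probes, and no spot was saturated. A gene was its probe with the highest mean. With 1 probe signal below background, the ratio was taken against the higher of the dim signal and the faintest detected one. It is called a bound, holds for the deposited signals only and can be smaller under normexp. With both below, none was taken. The number of arrays, 1 per group, limits the precision, and no test was possible. Pathway and marker genes were named by the file's gene name (181 probes), by transcript record in RefSeq's Sscrofa11.1 table (14) or by description (5). Named were all members, listed genes at least 2-fold apart (at most the 10 largest per comparison) and the 3 closest profiles. Listed genes beyond these, among them NLRP3, were named after their values were seen. The members and lists were chosen with earlier results of these data known. Calculations used Python 3.11.15, pandas 2.3.3, numpy 2.4.6 and, for normexp (offset 50) and quantile normalization, limma 3.58.1, and were tested on simulated data.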

Additional observations from a re-analysis of the deposited data

Results flagged for a closer look

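The measured ratios of IL18 had opposite signs with the stimuli. Its log2 ratio to unstimulated pMA was -0.34 after serotonin and 0.40 after TNF-α by A_72_P232887, and -0.38 and 0.36 by A_72_P652365. For IRAK1 the ratio with serotonin was 0.081 and that with TNF-α -0.24. These differences were not tested, since each condition has 1 array, and all of these ratios are below 2-fold and within 2 scanner standard errors (0.20 for IL18 and 0.21 for IRAK1) of 0. The direct ratio of serotonin to TNF-α was -0.75 and -0.74 for the IL18 probes, each ± 0.20 SE. These lie more than 2 scanner standard errors from 0 and below 2-fold. For IRAK1 it was 0.32 ± 0.21 SE.

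A probe outside the comparisons, A_72_P505474, described as an interleukin-1 receptor-like mRNA, was well above background only after TNF-α, with a signal of 37.5 beside 21.6 in unstimulated pMA, 18.5 after serotonin and 12.4 in PIP.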

How the results depend on the processing

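The numbers of members at least 2-fold apart changed as follows. Scaling to the median gave 1 in pMA against PIP in place of 0 (IL1A). Normexp gave 1 after serotonin in place of 2. A 4-fold cutoff gave 1 after serotonin and 0 between the stimuli. The number after TNF-α was 1 in all 9 settings. Among the listed pathway genes, normexp gave 6 in pMA against PIP in place of 10, and a 4-fold cutoff gave 3 there, 4 after serotonin in place of 12, 8 after TNF-α in place of 16 and 8 between the stimuli in place of 15. Naming by the gene name column alone, added after the data were seen, left each of these counts within 1.5-fold. Of 140 recalculated member ratios, 123 moved by less than the technical standard deviation and none past 2-fold changed sign. Of the other 17, 10 came with normexp, 5 with scaling to the median and 2 with quantile normalization. Many of the 123 could not move. Settings that only change the filter on dim probes left each ratio as reported, because these members were detected on all arrays. The median over probes cannot alter IL1R1, IL1RN or IRAK1, which have 1 probe each. IL1A lay between 3.52 and 3.85 after serotonin and between 2.02 and 2.32 after TNF-α. Of gene names at least 2-fold apart in pMA against PIP, 73.3% were higher in pMA as reported, 54.7% after quantile normalization, 33.9% with scaling to the median and 56.5% under normexp; after TNF-α these shares were 62.2%, 49.3%, 50.0% and 71.7%, and with serotonin against TNF-α 26.2%, 39.4%, 41.0% and 22.8%. Median scaling moved the median of all gene names by -0.34 in pMA against PIP and by 0.13 between the stimuli. No paired analysis was possible because each group has 1 array. Signals near background limit IL1B, IL1B2, IL1R1 and IL1RN.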
